A study of Mus musculus with 200 samples.

Results

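The genes described here are 9 markers of activated microglia, Clec7a, Cst7, Itgax, Cd68, Ccl6, Slamf9, Cd180, Capg and Lag3, in mouse brain after closed-head injury (CHI). They were taken by gene name, and all 9 were found once among the 56941 genes of the deposited count table. They were selected on their log2 fold changes of CHI over sham in these same mice, so the CHI-against-sham values below describe them and are not evidence for that response. Poly(A) RNA of brain tissue was sequenced from 200 mice, 67 of them with sham surgery and the others with CHI, killed 9, 24 or 72 h after surgery. The mice carried 1 of 4 strain labels: C57BL/6J (43 CHI, 18 sham), IL-1R1 gKO (37 CHI, 18 sham), IL-1R1 eRestore (33 CHI, 17 sham) and IL-1R1 nRestore (20 CHI, 14 sham). The labels say no more about these alleles of the interleukin-1 receptor, nor which promoter or cell type a restored allele depends on. The 9, 24 and 72 h sets held 46, 43 and 44 CHI mice and 22, 22 and 23 sham mice, aged 3.3 to 7.67 months. Of the 200 mice 102 were labelled female and 98 male, and all nRestore mice at 72 h were labelled male. In the study's methods, written for the C57BL/6J mice, CHI is a single impact on the exposed, unopened skull, and sham mice shared the isoflurane anaesthesia and scalp incision.

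Microglia are the resident macrophages of the brain. At rest they express receptors that survey the tissue, and after injury, in ageing or next to protein deposits they raise another set of genes for recognition, uptake and lysosomal digestion of material and for chemokine release. Clec7a (Dectin-1) is a receptor for beta-glucans that signals through the kinase Syk. Itgax encodes the integrin chain CD11c, which pairs with Itgb2. Cd180 is a Toll-like surface protein that pairs with Ly86, Slamf9 is a receptor of the SLAM family, and Lag3 is a CD4-related receptor that binds MHC class II. Cd68 is a glycoprotein of lysosomes, Cst7 (cystatin F) inhibits lysosomal cathepsins, Ccl6 is a secreted chemokine, and Capg caps actin filaments.

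The 250 bases before the start of the canonical transcript are shown for 4 members: Itgax and Cd68, which share a match to the AP-1 motif, Capg, which holds 3 matches to the PU.1 motif, and Ccl6, a late member with no match. They were read from the GRCm39 genome with the GENCODE annotation, 5′ to 3′ on the strand of the gene, and capitals mark a match. The Itgax window is chr7:127728418-127728667 on the plus strand, that of Cd68 chr11:69557068-69557317 on the minus strand, that of Capg chr6:72525897-72526146 on the plus strand, and that of Ccl6 chr11:83483914-83484163 on the minus strand.
Itgax: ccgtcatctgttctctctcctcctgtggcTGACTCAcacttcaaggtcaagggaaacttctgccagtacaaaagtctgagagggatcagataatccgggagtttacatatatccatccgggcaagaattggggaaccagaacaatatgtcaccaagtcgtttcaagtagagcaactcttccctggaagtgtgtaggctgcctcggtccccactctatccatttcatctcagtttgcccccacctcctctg
Cd68: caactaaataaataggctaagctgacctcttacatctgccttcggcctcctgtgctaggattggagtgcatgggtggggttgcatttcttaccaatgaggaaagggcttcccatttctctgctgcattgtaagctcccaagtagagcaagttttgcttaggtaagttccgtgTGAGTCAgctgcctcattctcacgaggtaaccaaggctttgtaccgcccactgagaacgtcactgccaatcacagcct
Capg: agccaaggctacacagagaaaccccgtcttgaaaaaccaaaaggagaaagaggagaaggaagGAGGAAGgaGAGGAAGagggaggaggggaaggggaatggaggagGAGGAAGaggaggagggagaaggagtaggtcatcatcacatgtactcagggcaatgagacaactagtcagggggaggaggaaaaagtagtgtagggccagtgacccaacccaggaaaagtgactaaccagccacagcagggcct
Ccl6: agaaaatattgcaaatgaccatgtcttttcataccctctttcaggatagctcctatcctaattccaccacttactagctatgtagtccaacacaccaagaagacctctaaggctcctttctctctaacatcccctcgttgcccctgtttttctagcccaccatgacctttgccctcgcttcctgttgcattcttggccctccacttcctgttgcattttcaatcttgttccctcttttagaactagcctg
Both strands of all 9 windows were searched. The AP-1 letters TGANTCA were found in 2 of 9 members and in 6.17% of 21770 promoters of this length, and the PU.1 letters GAGGAAG in 2 members (Capg and Lag3) and in 10.3% of promoters. The E-box CACGTG was found in 1 member, Slamf9, and in 6.26% of promoters. The interferon-response letters GAAANNGAA were in 0 members and in 7.55% of promoters. A match describes the letters and is not a binding site. All 9 are protein-coding genes. On GRCm39 Clec7a spans chr6:129438554-129449742, Capg chr6:72514955-72539970 and Lag3 chr6:124881320-124888765, all on chromosome 6. Cd68 spans chr11:69555037-69557067 and Ccl6 chr11:83478708-83483913. Itgax spans chr7:127728668-127749829, Cst7 chr2:150412284-150420864, Slamf9 chr1:172297192-172307889 and Cd180 chr13:102830041-102876137. Cd68, Ccl6, Cd180, Capg and Slamf9 each overlap another annotated gene on the opposite strand, and Slamf9 also on its own strand. Whether counting used strand is not given in the sources used here, so reads of such partners could be mixed in.

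In sham brain the members were weakly expressed and differed widely in level. In TPM, a unit that allows for the length of each transcript, the median over the 67 sham mice was 11.8 for Cd68, 4.00 for Lag3, 2.51 for Capg, 2.15 for Ccl6 and 1.64 for Cd180. It was 0.909 for Slamf9, 0.687 for Clec7a, 0.112 for Cst7 and 0.0844 for Itgax. The weakest members rested on few reads: the median estimated count in sham mice was 1 for Cst7, with 24 of 67 mice at 0, and 4 for Itgax, against 114 for Cd68. In bulk tissue a change in the number of microglia and a change in RNA per cell cannot be told apart.

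Libraries held 14857985 to 57355676 estimated counts (median 20258936), and the medians of CHI and sham mice at 72 h were 19216389 and 18505245. Il1r1, which the strain names refer to, was not lower in the mice labelled gKO: at 72 h its level in TMM-normalized counts scaled to library size (CPM) was 3.61 to 7.14 (median 4.13) in C57BL/6J sham mice and 6.80 to 14.4 (median 10.8) in gKO sham mice. Over CHI and sham mice at 72 h its median was 4.32 CPM in C57BL/6J mice and 9.74, 7.74 and 8.89 in gKO, eRestore and nRestore mice, with overlapping ranges. Il1r1 counts therefore set C57BL/6J apart by the median only and show no loss in gKO mice. They do not check the labels of the single IL-1R1 strains, which are used as given. In 2 libraries labelled male, an eRestore sham mouse at 24 h and an nRestore CHI mouse at 72 h, the Y-linked gene Ddx3y had 0 counts and Xist 11657 and 10339. Leaving both out changed no count of called members at 24 or 72 h.

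The median CHI effect on the members tested was larger at each later time. In a fit of all 4 strains with strain, sex and age as covariates, 2 of 8 members tested were called higher in CHI mice at 9 h (edgeR's quasi-likelihood test, adjusted p under 0.05 over all genes), where 12% of all genes were called higher and 11.9% lower. At 24 h 4 of 8 were called higher, with 0.627% of all genes higher and 0.854% lower. At 72 h all 9 were called higher, with 0.679% of all genes higher and 0.0272% lower. No member was called lower. Nothing is read from these counts, since this contrast chose the members. By their experiment labels, the 24 h mice came from 1 experiment with 18 CHI mice and 1 sham mouse, 1 with 8 and 12, and 1 with 17 and 9. Surgery and experiment were thus unbalanced at 24 h, and experiment was not in this fit. Cst7 fell below the filter on low counts at 9 and 24 h, and at 72 h it passed through 9 CHI mice and 0 sham mice. The median log2 fold change of the members tested was 0.14, 0.52 and 0.97 at 9, 24 and 72 h, and that of all genes was -0.0026, -0.00098 and -0.0034. The members' median at 72 h includes Cst7, the largest value there (2.06 ± 0.35), which the medians at 9 and 24 h lack. These medians therefore cover unlike sets.

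**Figure D1:**
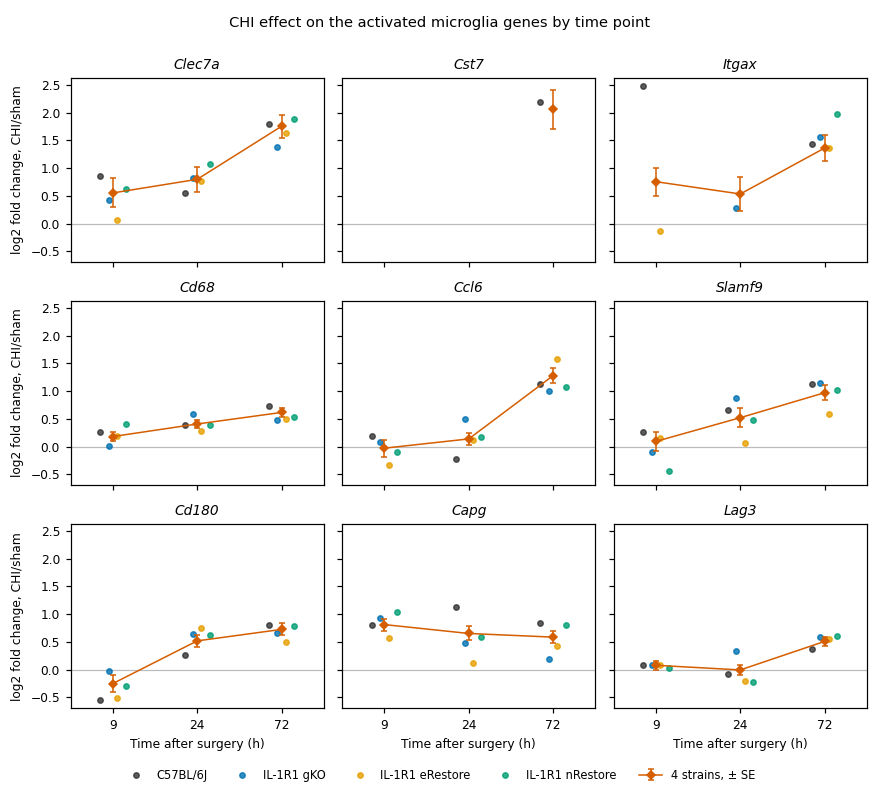
CHI effect on each member by time. The y axis is the log2 fold change of CHI over sham, the x axis the hours after surgery, diamonds the fit over 4 strains with its SE, and dots the fits of single strains. At 72 h the fit over 4 strains lies above 0 for all 9 members, from 0.51 (Lag3) to 2.06 (Cst7).

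Clec7a, the beta-glucan receptor, was higher in most CHI mice at 72 h. Its CPM in C57BL/6J mice was 0.319 to 4.16 (median 1.62) under CHI and 0.295 to 0.560 (median 0.463) in sham mice. In gKO mice it was 0.704 to 3.74 (median 1.71) against 0.163 to 1.01 (median 0.544), and in eRestore mice 0.786 to 2.50 (median 1.48) against 0.115 to 0.955 (median 0.431). In nRestore mice it was 0.619 to 3.12 (median 2.01) under CHI, and the 5 sham mice had 0.312, 0.415, 0.466, 0.540 and 0.719. The groups overlapped in each strain, with 38 of 44 CHI mice above every sham mouse of their own strain. Over the strains the log2 fold change was 0.55 ± 0.26 (SE) at 9 h, 0.80 ± 0.22 at 24 h and 1.75 ± 0.20 at 72 h. The call at 24 h was lost with no filter on low counts, without the nRestore mice and without any 1 of 5 among the 10 sham mice left out in turn. The fits of single strains at 72 h ranged from 1.39 to 1.88.

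Itgax, the CD11c chain, had the most uneven course. In C57BL/6J mice at 9 h it was 0.138 to 1.10 (median 0.350) CPM under CHI and 0 to 0.171 (median 0.0722) in sham mice. That gave a log2 fold change of 2.48 ± 0.45, called where 14.1% of genes were, but 7 CHI mice and 0 sham mice reached the 10 counts of the filter, so Itgax was tested there through the group where it was high. The eRestore mice gave -0.14 ± 0.42. The difference between these strains in CHI effect was not called, at -2.54 ± 0.61 (adjusted p = 0.139) by edgeR. At 72 h the CHI medians in C57BL/6J, gKO, eRestore and nRestore mice were 0.678, 0.474, 0.469 and 0.668 CPM, and the sham medians 0.172, 0.162, 0.116 and 0.125. The 6 nRestore CHI mice, at 0.348 to 0.839 CPM, all lay above the 5 sham mice (0.0600, 0.119, 0.125, 0.194 and 0.274). In eRestore mice none did, and 1 sham mouse there had 0.937 CPM. Over the strains the log2 fold change was 0.75 ± 0.25, 0.53 ± 0.30 and 1.36 ± 0.23 at 9, 24 and 72 h.

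Cd180, the Toll-like protein, had values below sham at 9 h, where it was not called, and was called higher later. The median over all CHI mice was 1.83, 2.70 and 3.60 CPM at 9, 24 and 72 h, and that of sham mice 2.19, 1.79 and 2.11. The log2 fold change was -0.25 ± 0.15, 0.52 ± 0.10 and 0.73 ± 0.11. At 9 h its value was below 0 in each of the 4 strains, from -0.55 ± 0.29 (C57BL/6J) to -0.02 ± 0.19 (gKO), and was called in none. At 72 h 31 of 44 CHI mice lay above every sham mouse of their strain. The lowest nRestore CHI mouse, at 1.29 CPM and below all its sham mice, is one of the libraries whose sex-linked genes went against the label. Without it the nRestore value moved from 0.78 ± 0.27 to 0.97 ± 0.17.

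Slamf9, the SLAM-family receptor, had a median at 72 h of 0.896 (0.314 to 2.02) CPM under CHI and 0.522 (0.250 to 0.649) in sham mice. The log2 fold changes were 0.09 ± 0.17, 0.52 ± 0.17 and 0.97 ± 0.13 at 9, 24 and 72 h. Of the CHI mice 40 of 44 exceeded every sham mouse of their strain, and 2 eRestore CHI mice lay below all of theirs. Lag3, the MHC class II receptor, had log2 fold changes of 0.08 ± 0.08 at 9 h and -0.0045 ± 0.09 at 24 h, and 0.51 ± 0.08 at 72 h. Its median was then 5.25 (2.95 to 7.84) CPM under CHI and 3.25 (1.62 to 5.90) in sham mice, with 33 of 44 CHI mice above every sham mouse of their strain.

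Of the lysosomal genes, Cd68 had the highest level and a small, even difference. At 72 h it was 5.43 to 18.6 (median 8.45) CPM in C57BL/6J CHI mice and 4.54 to 7.16 (median 5.51) in sham mice. The 6 nRestore CHI mice (6.93 to 8.58) did not overlap the 5 sham mice, which had 4.85, 5.34, 5.40, 5.68 and 5.68. Over all strains 37 of 44 CHI mice exceeded their sham mice, and the log2 fold change went from 0.18 ± 0.08 at 9 h to 0.41 ± 0.07 at 24 h and 0.62 ± 0.08 at 72 h. Cst7, the cathepsin inhibitor, had the largest log2 fold change at 72 h, 2.06 ± 0.35, at the lowest counts. The CHI medians were 0.521, 0.199, 0.111 and 0.145 CPM in C57BL/6J, gKO, eRestore and nRestore mice, and the sham medians 0.0668, 0, 0.0260 and 0.0388. Of the CHI mice 24 of 44 lay above every sham mouse of their strain.

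Ccl6, the chemokine, came late and overlapped least with sham. At 24 h the median was 1.38 CPM in CHI mice and 1.14 in sham mice, with a log2 fold change of 0.14 ± 0.11 after -0.03 ± 0.15 at 9 h. At 72 h it was 1.12 to 6.29 (median 3.26) CPM in C57BL/6J CHI mice and 0.916 to 1.70 (median 1.44) in sham mice, and the gKO mice had 1.73 to 4.47 (median 2.40) against 0.762 to 1.93 (median 1.13). The eRestore groups just failed to overlap, at 1.30 to 4.44 (median 2.39) against 0.408 to 1.29 (median 0.748). The nRestore CHI mice, at 1.96 to 4.49 (median 3.07), lay above the 5 sham mice, which had 1.06, 1.25, 1.47, 1.72 and 1.86. In all 42 of 44 CHI mice exceeded every sham mouse of their strain, and the log2 fold change was 1.28 ± 0.13. In the fit of eRestore mice alone it was 1.58 ± 0.24 and the one gene called (0.00605% of genes). That call was lost without any 1 of 5 of the 6 sham mice.

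Capg, the actin-capping gene, was called at all 3 times in the fit over 4 strains. At 9 h it was 1.37 to 3.21 (median 2.27) CPM in C57BL/6J CHI mice and 0.850 to 1.70 (median 1.30) in sham mice. The gKO mice had 0.887 to 3.36 (median 2.33) against 0.915 to 1.48 (median 1.15), and the eRestore mice 1.64 to 3.63 (median 2.21) against 0.726 to 1.93 (median 1.60). The nRestore CHI mice had 1.19 to 3.19 (median 2.45), and the 4 sham mice 0.998, 1.22, 1.25 and 1.48. Of the CHI mice 36 of 46 lay above every sham mouse of their strain at 9 h, 29 of 43 at 24 h and 20 of 44 at 72 h. The log2 fold change was 0.81 ± 0.11, 0.65 ± 0.13 and 0.59 ± 0.11 at these times. At 72 h the gKO mice gave 0.20 ± 0.22, with 1 sham mouse at 2.97 CPM above all 12 CHI mice.

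**Figure D2:**
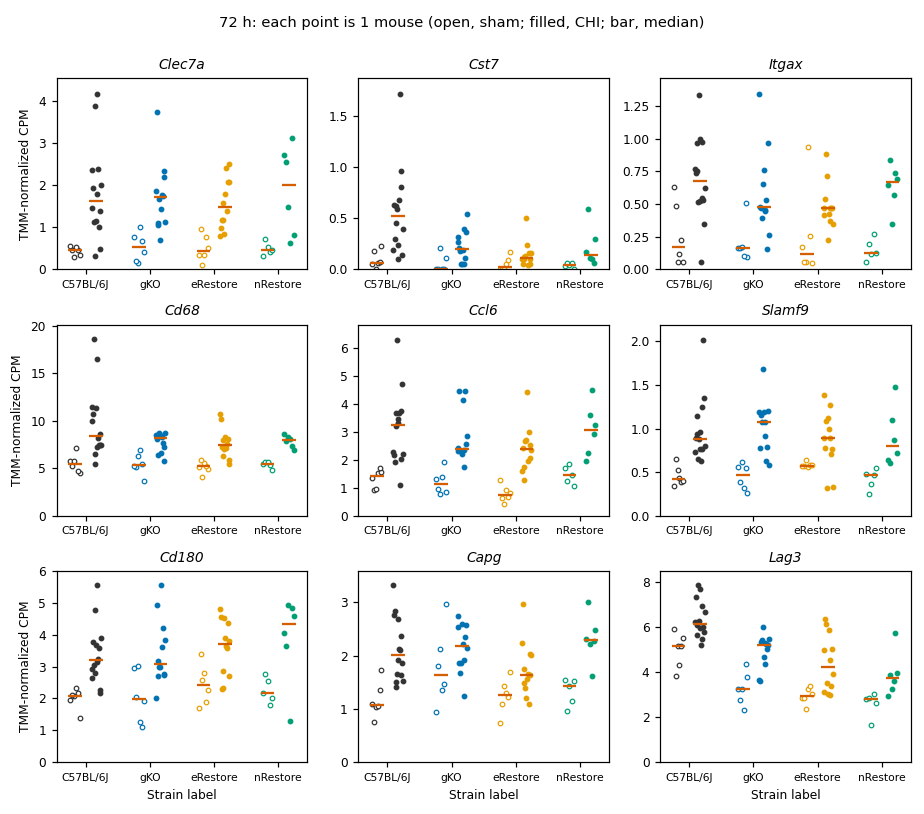
Level of each member at 72 h in each mouse. The y axis is TMM-normalized CPM, each point is 1 mouse (open for sham, filled for CHI) and the bar is the median. Ccl6 overlaps least, with 42 of 44 CHI mice above every sham mouse of their strain, and Itgax most, with 18 of 44.

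In the fits of single strains few members were called. These were Itgax and Capg (0.81 ± 0.19) in C57BL/6J mice at 9 h, Capg (1.13 ± 0.23) in C57BL/6J mice at 24 h, and Ccl6 in eRestore mice at 72 h. In C57BL/6J, gKO, eRestore and nRestore mice these fits called 14.1%, 0.199%, 7.34% and 0.608% of all genes at 9 h, 0.404%, 0.0059%, 0% and 0% at 24 h and 0%, 0%, 0.00605% and 0.0121% at 72 h. In C57BL/6J mice at 72 h edgeR called 0 of 9 members and 0 genes in all. By edgeR 869 of 16875 genes had an unadjusted p under 0.05, close to the share that chance alone gives. DESeq2 called 5 members among 41 of 16875 genes. At 72 h each member tested had a value above 0 in each strain where it was tested. Cst7 was tested in C57BL/6J mice alone, where 7 CHI mice and 0 sham mice reached the 10 counts of the filter. Itgax in nRestore mice passed through 5 CHI mice and 0 sham mice. Both were tested there through the group where they were high, so nothing is read from those signs. In each of 3 experiments analysed alone at 72 h, all 9 members had values above 0, with medians of 0.77, 0.89 and 1.22. The remaining experiment, of 2 CHI mice and 1 sham mouse, was not analysed alone. The values by strain and by experiment come from the mice and contrast that chose the members. They are a description and not a replication.

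The CHI effect was also compared between time points in one fit of all mice. From 24 to 72 h the effect on Ccl6 grew by 1.07 ± 0.19 on the log2 scale, 1 of 5 genes called (0.0249%). From 9 to 24 h Cd180 was called, at 0.79 ± 0.18, with 9.63% of genes called. From 9 to 72 h 6 members were called, with 11.8% of genes called: Ccl6 (1.33 ± 0.19), Clec7a (1.21 ± 0.33), Cd180 (0.96 ± 0.17), Slamf9 (0.89 ± 0.22), Lag3 (0.43 ± 0.12) and Cd68 (0.42 ± 0.11). Capg had -0.22 ± 0.15 and was not called. These comparisons share their samples with the contrast that chose the members and are given as values. No experiment held mice of 9 h and of a later time, and tissue was taken at different times of day, so time, experiment and hour of the day cannot be told apart between 9 h and later.

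No member was called for a difference in CHI effect between an IL-1R1 strain and C57BL/6J at any time, in 9 comparisons. For gKO, eRestore and nRestore mice these called 0%, 0.0107% and 0.00534% of all genes at 9 h, 0.00541%, 0.0108% and 0% at 24 h and 0%, 0% and 0.00543% at 72 h. The largest were those of Itgax at 9 h, with the C57BL/6J value the higher in each. By edgeR they were -2.54 ± 0.61 (adjusted p = 0.139) in eRestore and -1.89 ± 0.63 (adjusted p = 0.493) in gKO mice. In nRestore mice the same test gave -1.92 ± 0.79 (adjusted p = 0.787). These Itgax comparisons share the same C57BL/6J mice, whose 6 sham mice had a median count of 2, so they are not independent results. No nRestore mouse reached the count of the filter at 9 h. All nRestore mice of that time came from an experiment without C57BL/6J mice, so strain and experiment cannot be told apart there. Capg had -0.92 ± 0.32 in eRestore mice at 24 h. At 72 h the differences ran from -0.61 ± 0.27 (Capg) to 0.23 ± 0.20 (Lag3) in gKO mice, from -0.84 ± 1.10 (Cst7) to 0.43 ± 0.36 (Ccl6) in eRestore mice, and from -0.26 ± 0.24 (Cd68) to 0.69 ± 0.71 (Itgax) in nRestore mice. The standard errors at 72 h ran from 0.20 to 1.44. A difference well above its standard error could still go uncalled, as that of Itgax in eRestore mice at 9 h did. Strain differences of that kind are therefore not excluded. No member was called between the sexes in level or in CHI effect. The smallest p in level was that of Itgax at 9 h, 0.65 ± 0.23 in females over males (adjusted p = 0.808), where 0.096% of genes were called, against 0.2% and 0.125% at 24 and 72 h. The CHI effect differed between the sexes in 0%, 0% and 0.00543% of genes at 9, 24 and 72 h.

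The level of the members in the IL-1R1 strains relative to C57BL/6J, adjusted for surgery, was not used to choose them. Lag3 was lower in all 3 strains at 24 h and at 72 h. The 3 comparisons of a time share the same C57BL/6J mice, so they are not independent results. At 24 h its CPM over CHI and sham mice was 4.91 (3.82 to 5.84, n = 20) in C57BL/6J, 3.44 (2.72 to 7.15, n = 14) in eRestore, 3.08 (2.36 to 3.89, n = 13) in nRestore and 2.99 (1.75 to 6.02, n = 18) in gKO mice, given as median and range. The C57BL/6J mice stood highest by the median, and the ranges overlapped. The log2 fold changes were -0.40 ± 0.11 (adjusted p = 0.00637), -0.70 ± 0.11 (adjusted p = 2.09e-06) and -0.63 ± 0.10 (adjusted p = 2.54e-06) by edgeR. At 72 h the levels were 5.93 (3.84 to 7.84, n = 20), 3.37 (2.34 to 6.32, n = 18), 3.03 (1.62 to 5.73, n = 11) and 4.51 (2.31 to 5.98, n = 18) in the same order. The log2 fold changes were -0.59 ± 0.09 (adjusted p = 4.05e-06), -0.76 ± 0.12 (adjusted p = 3.09e-06) and -0.44 ± 0.09 (adjusted p = 0.000748). Many genes were lower in these strains: 9.31%, 11.3% and 7.76% of all genes were called lower at 24 h and 7.35%, 2.5% and 3.51% at 72 h. At 9 h no member was called, with 12.5%, 10.8% and 13.4% of genes called, and Lag3 had -0.13 ± 0.10, -0.21 ± 0.15 and -0.21 ± 0.11. With experiment in place of age, Lag3 stayed called at both later times, for example at -0.66 ± 0.13 (adjusted p = 0.000640) in nRestore mice at 72 h.

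**Figure D3:**
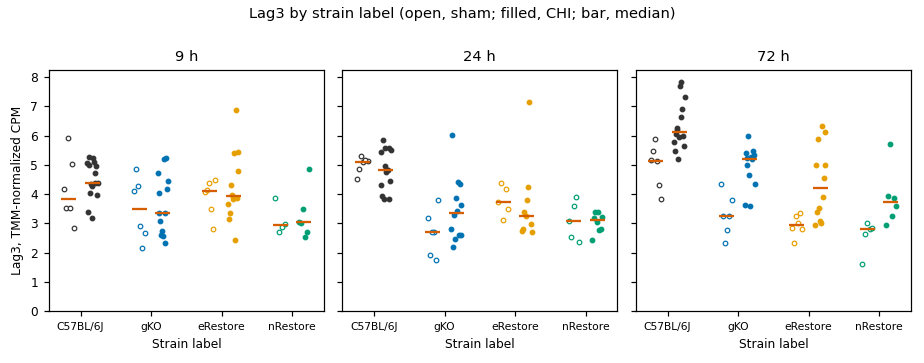
Lag3 in each mouse by strain label, in 1 panel per time. The y axis is TMM-normalized CPM, open points are sham mice, filled points CHI mice, and bars are medians. Over both surgeries the C57BL/6J median is 4.91 at 24 h and 5.93 at 72 h, above those of the IL-1R1 strains.

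Other members differed between strains less regularly. Cd68 was lower than in C57BL/6J mice in gKO (-0.29 ± 0.08) and nRestore mice (-0.36 ± 0.09) at 24 h, and in eRestore mice at 72 h (-0.28 ± 0.10), with adjusted p of 0.00867, 0.00199 and 0.0439 by edgeR. Ccl6 was lower in eRestore mice at 72 h, -0.45 ± 0.16 (adjusted p = 0.0403). With experiment in place of age, Ccl6 at -0.40 ± 0.16 (adjusted p = 0.0699) and Cd68 in eRestore mice at -0.26 ± 0.09 (adjusted p = 0.0522) were no longer called. Both calls were also lost with no filter on low counts. For Cst7 at 72 h the values were -1.15 ± 0.36 in gKO and -1.63 ± 0.39 in eRestore mice, with medians of 0.146 and 0.101 CPM against 0.266 in C57BL/6J. Of the 9 mice in which Cst7 reached the 10 counts of the filter, 7 were C57BL/6J CHI mice, so it was tested through the group where it was high and no difference is read from it. Nor is one read for Itgax in nRestore mice at 24 h, at -1.13 ± 0.39, since 13 mice reached 10 counts and 0 of them were nRestore mice.

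Known partners of the members were followed as a list. Of 16 partner genes (binding partners, ligands, signalling proteins and target cathepsins), 4 were called higher and 0 lower at 72 h, where 0.679% of all genes were called higher, with a median log2 fold change of 0.12. They were Ly86, the partner of Cd180 (0.56 ± 0.08), Itgb2, the partner of Itgax (0.37 ± 0.06), and the cathepsins Ctsc (0.28 ± 0.06) and Ctsh (0.32 ± 0.07). At 9 h 4 were called lower and 0 higher, where 11.9% of all genes were called lower. These were Ctsh (-0.22 ± 0.06), the MHC class II genes H2-Aa (-0.97 ± 0.28) and H2-Eb1 (-0.60 ± 0.21), whose product Lag3 binds, and Syk (-0.20 ± 0.07), the kinase downstream of Clec7a. At 24 h none of the 16 was called.

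Further microglial lists were followed in the same fit, which called 0.679% of all genes higher at 72 h. Of 24 further genes of activated microglia, 12 were called higher and 0 lower at 72 h (median 0.21), with the smallest p for the chemokine Ccl3 (2.52 ± 0.37) and the lysosomal proteases Ctsd (0.23 ± 0.04) and Ctsz (0.29 ± 0.05). Of 13 genes of microglia and macrophages in general, 9 were called higher (median 0.33), among them Laptm5 (0.31 ± 0.05) and the complement gene C1qc (0.38 ± 0.06). Of 12 homeostatic genes, which mark microglia at rest, 6 were called higher and 0 lower (median 0.19), among them Olfml3 (0.51 ± 0.07) and the fractalkine receptor gene Cx3cr1 (0.20 ± 0.04). The summed TPM of the homeostatic list at 72 h had a median of 397 (314 to 546) in CHI mice and 324 (281 to 394) in sham mice. That of the 9 members was 38.7 (29.1 to 75.4) and 24.4 (18.7 to 32.9). Their part in the members' values was not tested. At 9 h 9 of the 12 homeostatic genes were called lower and 0 higher, where 11.9% of all genes were called lower, for example Slc2a5 (-0.74 ± 0.09), Olfml3 (-0.72 ± 0.10) and the purinergic receptor gene P2ry12 (-0.62 ± 0.09).

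**Figure D4:**
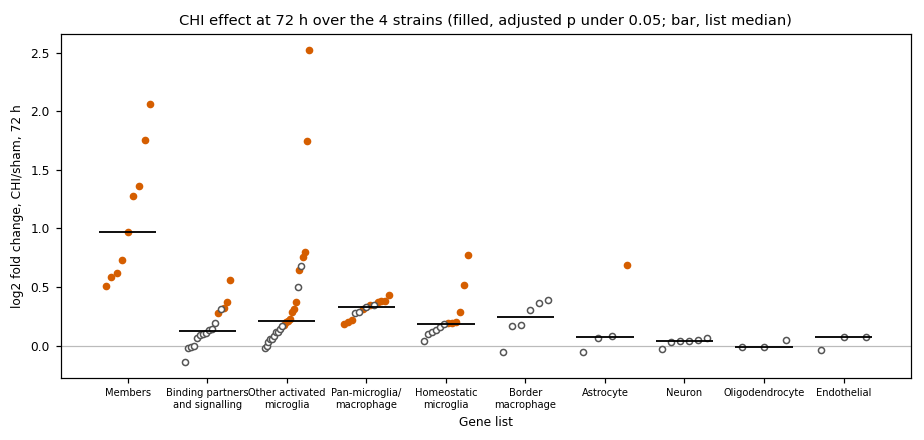
CHI effect at 72 h in the members and in marker lists. The y axis is the log2 fold change of CHI over sham in the fit over 4 strains, each point is a gene (filled where the adjusted p was under 0.05) and the bar is the list median. The median is 0.97 for the members, 0.33 for the microglia and macrophage list and 0.04 for the neuron list. The members were chosen on this contrast, so nothing is read from their place above the lists.

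Monocyte and neutrophil markers were scarce in most mice. Of 4 monocyte markers Ly6c2, Chil3 and Plac8 had a count in 91, 68 and 62 of 200 mice, and Ccr2 in all but 13. The summed monocyte list at 72 h was 0.449 (0 to 2.73) TPM in CHI mice and 0.331 (0 to 1.25) in sham mice, and the sum of 7 neutrophil genes 0.760 (0 to 4.57) and 1.19 (0 to 4.33), with a count of Ly6g in 5 mice. Of 10 T and NK cell genes, Cd3d had a count in 34 mice and Gzma in 16, and the sum, mostly Trbc2 and Cd4, was 32.7 (15.1 to 46.2) and 32.7 (21.1 to 44.5). Of 6 border macrophage genes 0 were called at 72 h, and their sum was 8.14 (3.59 to 15.0) and 7.38 (2.62 to 13.7). The red-cell sum was 20.9 (3.24 to 218) and 14.7 (3.60 to 122), and the choroid plexus sum 29.0 (4.42 to 3096) and 24.4 (7.20 to 233), with no gene of either called. Of 4 astrocyte genes 1 was called higher, Gfap (0.69 ± 0.09), and of the neuron, oligodendrocyte and endothelial genes none was called at 72 h. Their part in the members' values was not tested.

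Once the mean of each strain, surgery and time group was removed, the members varied together only weakly over the 200 mice. The 36 pairs had Pearson correlations of 0.0192 to 0.452, with a median of 0.181 and the highest value for Clec7a with Cd180. Among the genes most like the mean of the members, of 20111, were Cx3cr1 (0.623), Ly86 (0.619), Mpeg1 (0.618) and C1qc (0.601). The most similar gene outside the list was Plek for Clec7a (0.538), C1qc for Cd68 (0.593), Ccl9 for Ccl6 (0.548), Cx3cr1 for Cd180 (0.608), C5ar1 for Capg (0.430) and Gapdh for Lag3 (0.434). For Itgax, Slamf9 and Cst7 it reached 0.350 (Plxdc2), 0.352 (Gm9768) and 0.282 (Slc11a1). These correlations describe mice that share depth and batches, and those of the weakly counted members are no finding.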

How the data were processed

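The authors trimmed paired-end reads, aligned them to GRCm39 with STAR, quantified transcripts with Salmon and deposited 2 gene tables, one of estimated counts and one of TPM. Annotation release and strand setting are not given in the sources used here. The deposited estimated counts were rounded to whole numbers and tested with edgeR 4.0.16 in R 4.3.3 (quasi-likelihood test, TMM normalization, Benjamini-Hochberg adjustment over all genes tested, threshold 0.05), after keeping genes that reached 10 counts in a number of mice equal to the smallest group's size, with sex and age as covariates. Sex was dropped for nRestore mice at 72 h. Strains were fitted separately and together at each time, and all 200 mice for differences between times. DESeq2 1.42.0, other normalization, filters, covariates, single experiments and left-out sham mice were tried. The scripts were tested on simulated data. All 9 members were named in each comparison, up to 4 genes per list by smallest p, and for likeness the 5 genes most correlated with the members' mean plus the 2 closest to each member (the closest is given), on log2 CPM with prior count 1. 1 gene that this rule names is not reported here. The members and lists were chosen with earlier results of these data known. The labels give each library its own animal, so replicates are mice.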

Additional observations from a re-analysis of the deposited data

Results flagged for a closer look

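In each group of 4 to 10 mice, the gap between the most extreme mouse and its neighbour was set against the range of the group (Dixon's gap test on log2 CPM). Over the members, 13 groups held a mouse past the critical value. That is 9.03% of the groups tested, and chance gives about 1 in 20. Itgax had 1 high mouse in each of 3 groups: gKO sham at 72 h (replicate 1, 0.507 CPM against a next value of 0.168), nRestore CHI at 9 h (replicate 4, 0.341 CPM against a next value of 0.202) and nRestore sham at 9 h (replicate 4, 0.213 CPM against a next value of 0.110). Cst7 was at 0 in all but 1 nRestore sham mouse at 9 h (replicate 1, 0.0530 CPM against a next value of 0), which held a single count. Ccl6 was low in 1 eRestore CHI mouse at 24 h (replicate 5, 0.462 CPM against a next value of 1.16) and high in 1 nRestore CHI mouse at 24 h (replicate 3, 2.13 CPM against a next value of 1.55). Slamf9 was high in 1 eRestore sham mouse at 72 h (replicate 6, 0.641 CPM against a next value of 0.583) and low in 1 nRestore CHI mouse at 24 h (replicate 7, 0.229 CPM against a next value of 0.645).

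Cd180 was low in 1 C57BL/6J sham mouse at 72 h (replicate 6, 1.39 CPM against a next value of 1.94) and high in 1 gKO sham mouse at 9 h (replicate 6, 3.11 CPM against a next value of 2.15). It was also low in 1 nRestore CHI mouse at 72 h (replicate 6, 1.29 CPM against a next value of 3.64), a library whose sex-linked genes went against its label. Lag3 was high in 1 eRestore CHI mouse at 24 h (replicate 2, 7.15 CPM against a next value of 4.24) and low in 1 nRestore sham mouse at 72 h (replicate 5, 1.62 CPM against a next value of 2.64). That eRestore mouse was also the highest of its group for Clec7a (3.94 against 1.89 CPM), Cst7 (0.780 against 0.333), Itgax (1.65 against 0.530) and Cd68 (12.0 against 10.2). None of these gaps passed the critical value. For the remaining members the larger gap of that group was at its low end.

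The CHI effect differed between time points, by the test of that difference, for Cd180 from 9 to 24 h (0.79 on the log2 scale) and for Ccl6 from 24 to 72 h (1.07). From 9 to 72 h it differed for Ccl6 (1.33), Clec7a (1.21), Cd180 (0.96), Slamf9 (0.89), Lag3 (0.43) and Cd68 (0.42). Of all genes 9.63% were called from 9 to 24 h, 0.0249% from 24 to 72 h and 11.8% from 9 to 72 h. These contrasts share the libraries from which the members were chosen, and no experiment held both 9 h mice and mice of a later time, so time and experiment cannot be told apart there.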

How the results depend on the processing

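No result reversed. In the fit over 4 strains the 9 members called at 72 h stayed 9 under RLE normalization, DESeq2, no filter, no covariates, experiment in place of age and without nRestore mice, and were 6 in the experiment with most mice, 0 in the 16-mouse and 2 in the 11-mouse experiment alone. The 4 called at 24 h were 0 in the experiment with most mice and in each of 2 experiments alone, 3 with no filter and without nRestore mice (Clec7a lost in both) and 5 with no covariates (Slamf9 gained). The 2 called at 9 h were 1 with DESeq2 and gene-length offsets, in the experiment with most mice and in each of 3 experiments alone. Of all genes, the 24 h fit called 274 of 18495, against 212 of 35751 with no filter and 308 of 18495 with no covariates. The 9 h fit called 4483 of 18741, against 3876 of 18741 with gene-length offsets and 1603 of 18795 in the experiment with most mice. Of single strains, C57BL/6J at 72 h (0) gave 5 with DESeq2, with experiment in place of age and in one fit of all strains, and 2 with gene-length offsets. C57BL/6J gave 0 (experiment with most mice) and 2 (no filter) at 24 h in place of 1, and 1 (experiment with most mice) at 9 h in place of 2. eRestore at 72 h (1) gave 2 with DESeq2 with and without offsets and 0 in the experiment with most mice, and at 9 h (0) 1 with DESeq2. gKO at 24 h (0) gave 2 with DESeq2 and 1 with offsets, no covariates, no filter or one fit, and at 9 h (0) 1 with DESeq2, offsets or one fit. nRestore gave 2 at 72 h with DESeq2 and 1 at 9 h with no filter, in place of 0. Of levels against C57BL/6J, counting Cst7 and Itgax, eRestore gave 2 at 24 h (experiment in place of age) in place of 1, and 2 at 72 h (experiment in place of age, no filter) in place of 4. gKO at 72 h gave 1 with DESeq2, which gave Cst7 no adjusted p, or no filter, in place of 2, and nRestore at 9 h 1 with no covariates in place of 0. That nRestore comparison called 4730 of 18741 genes with no covariates, in place of 2017. The change from 24 to 72 h gave 2 with DESeq2 or experiment in place of age, in place of 1. These 2 settings called 15 of 20111 and 12 of 19228 genes, in place of 5 of 20111. The analyses of single experiments and without the 2 libraries of discordant sex were chosen after seeing the data, and the latter changed no count. The cause of these shifts was not tested.

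Leaving out 1 sham mouse at a time gave 0 to 1 members in C57BL/6J at 24 h (lost without replicate 1, 3, 4 or 6), 2 to 3 at 9 h, 0 to 1 in eRestore at 72 h (lost without replicate 1, 2, 4, 5 or 6) and 0 to 1 in gKO at 24 h (gained without replicate 1). In the fits over strains only sham mice of groups of 5 or fewer were left out, 4 at 9 h, 10 at 24 h and 5 at 72 h. No C57BL/6J or gKO sham mouse was left out of these fits. Over 4 strains at 24 h it gave 3 to 4, Clec7a being lost without any of 5 eRestore or nRestore sham mice. The other counts did not change for the mice left out. Single experiments hold fewer mice, and Cst7 and Itgax rest on few counts. Leaving out mice in the comparison of times was not run. No paired analysis was possible because the labels give the groups no shared replicate numbers.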
